A study of Mus musculus with 6 samples.

Results

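Chemokines are small secreted proteins that guide migrating cells, and this report covers the genes of their ligands and receptors in ovaries taken whole from 8 to 9 week old C57BL/6 mice. Members were the table rows whose symbol is Ccl, Cxcl, Cx3cl, Ccr, Cxcr, Cx3cr or Ackr followed by a number and at most 1 letter. They came to 60 of the 46078 genes listed, 39 ligand rows and 21 receptor rows, with 59 different symbols because Ccl27a is listed under 2 identifiers. One group of 3 libraries was untreated (control), and the other was labelled for cyclophosphamide (CTX), an alkylating chemotherapy drug that damages ovarian follicles. All libraries share strain, tissue and age range. The sources used here do not give the dose, the route, the interval to sampling or the stage of the cycle. They also do not say whether each library is a different animal, so the p-values speak for the scatter of these libraries alone, which may be technical. Levels are RPKM, the read number of a gene scaled to its length and to the size of the library, given, in the order 1, 2 and 3 within each group.

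Chemokine ligands are classed by the spacing of their first cysteines as CC, CXC and CX3C proteins, and their receptors are seven-helix membrane proteins that signal through inhibitory G proteins. Some ligands are made constantly and place resident cells (Cxcl12, Ccl21a), and others are switched on in inflammation and recruit monocytes, neutrophils or lymphocytes (Ccl2, Cxcl1, Cxcl10). Atypical receptors (Ackr) bind chemokines without G protein signalling and take them up or move them across cells. In the ovary chemokines are known from the leukocytes that enter around ovulation and during the breakdown of the corpus luteum. Because whole ovaries were sequenced, fewer cells of a type and less RNA per cell cannot be told apart.

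The libraries differed in ways that the groups did not explain. Luteal cell markers (9 genes, none at 0) summed to 8130, 9172 and 4197 RPKM in controls and to 10466, 3316 and 3163 in CTX, so that controls 1 and 2 and CTX 1 stood apart from control 3 and CTX 2 and 3. Granulosa markers (10 genes) ran the other way, with 1688, 1541 and 3740 in controls and 1007, 3291 and 3264 in CTX, as did oocyte markers (10 genes), with sums of 146 to 347 and 107 to 395. The first component of the residuals held 78.0% of the variation within groups, with CTX 1 farthest from the others. The values imply a depth of 15809900 to 22132000 reads.

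Most members were low. In 15 of 60 the RPKM was at least 1 in all 6 libraries, in 24 (40%) in at least 3, against 31.5% of all listed genes, and in another 6 in 1 or 2 libraries. The remaining 30 stayed below 1 throughout, and 4 of them (Ccl20, Ccr6, Ccl21c and the second Ccl27a entry) were listed at 0 in every library. Ccl21c and the second Ccl27a entry lie on scaffolds outside the assembled chromosomes. Ligands were more often above the minimum than receptors, with 18 of 39 against 6 of 21 reaching it in at least 3 libraries. Ccl21a, Cxcl14 and Cxcl12 had the highest mean RPKM of all members, and Cxcr4 was the most abundant receptor.

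**Figure D1:**
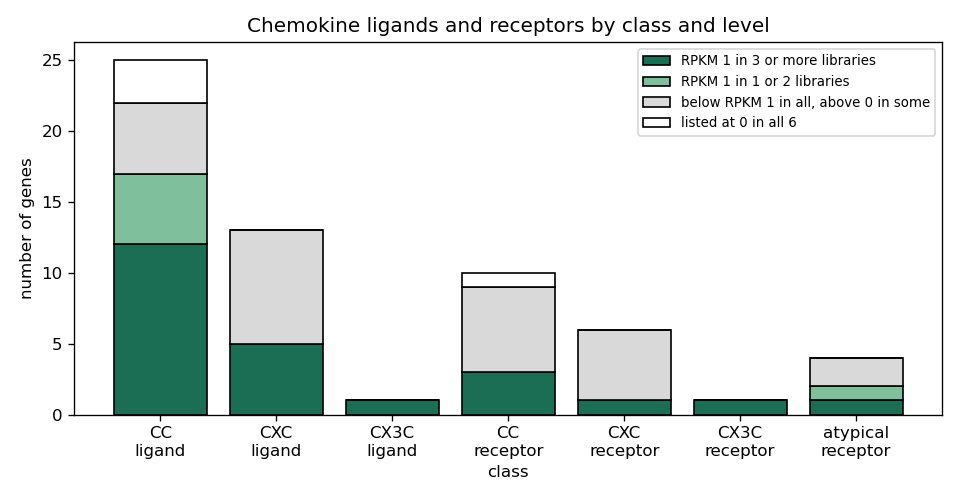
Number of genes (vertical axis) in each class of chemokine ligand and receptor (horizontal axis), split by how many libraries reached an RPKM of 1. Among 25 CC ligand rows 12 reached it in at least 3 libraries, against 1 of 6 CXC receptors.

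No chemokine or receptor gene passed the test between CTX and control. Limma's linear model with Benjamini-Hochberg adjustment over 14535 genes called 0 of the 24 members that passed the filter (RPKM 1 or more in 3 or more of the 6 libraries), with a smallest adjusted p of 0.99997, where 0% of all genes were called. At an unadjusted p under 0.05 there was 1 member (4.17%), Cxcl14, against 3.45% of all genes. The median log2 fold change of RPKM + 1, CTX minus control, was −0.08 over these 24 members and −0.01 over all genes tested, and 17 of 24 members had negative values, against 51.2% of all genes. All 6 receptors tested were among the 17, with a median of −0.25. In no tested member did the 3 CTX libraries lie all above or all below the 3 controls, whereas in 3.32% of all genes they lay all above and in 5.5% all below.

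That count depended on which library was left out. Without CTX 1 the groups separated in 9 of 24 members (37.5%), close to the 39.8% of all genes. Cx3cl1, Cxcl1 and Cxcl14 were then higher in CTX, and Ccl2, Ccl5, Ccl11, Cxcl10, Cxcl12 and Cxcr4 lower. Without control 2 they separated in 5 of 24 (20.8%), all lower in CTX, against 14% of all genes, and without control 3 in 4 of 24 (16.7%), against 24.6%. The smallest adjusted p of a member without CTX 1 was 0.197 in limma, for Cxcl1. After trimmed-mean scaling between libraries 2 members separated, Cx3cl1 and Cxcl14, both with higher values in CTX (8.33%, against 9.67% of all genes).

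**Figure D2:**
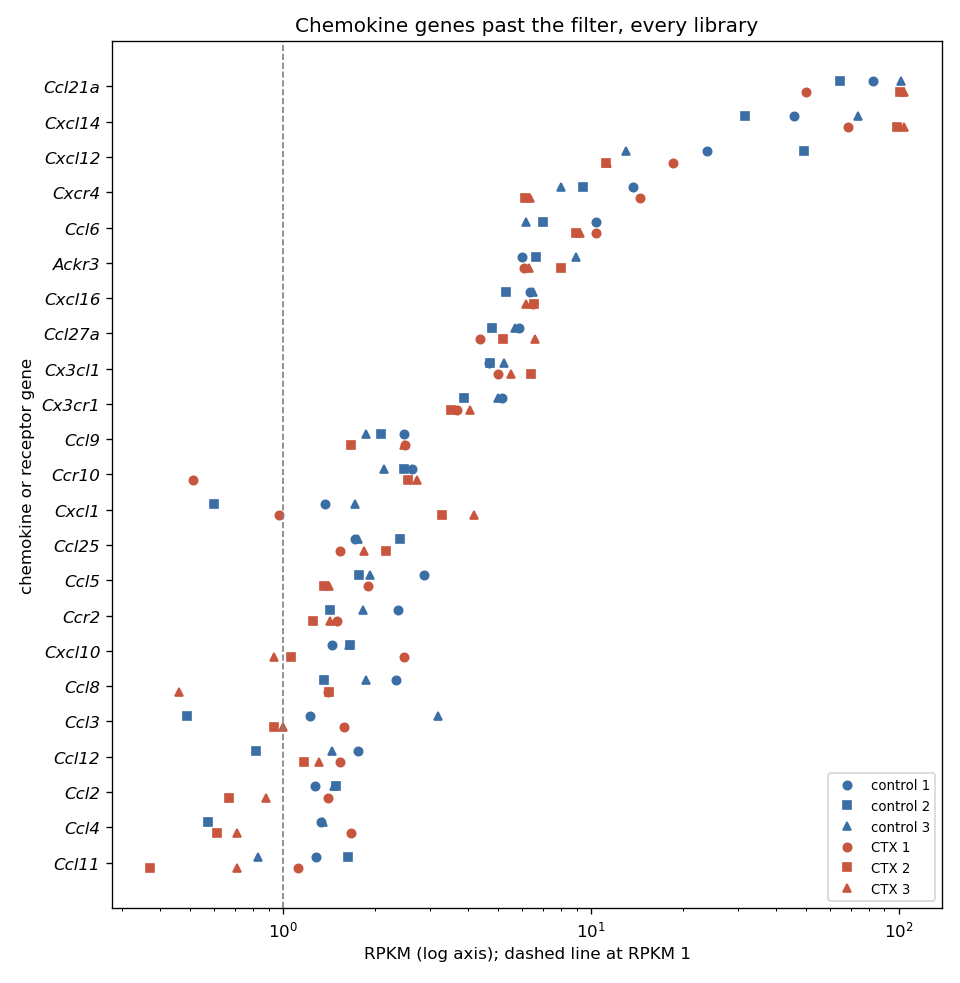
RPKM of 23 chemokine and receptor genes past the filter (horizontal log axis) in each library, blue for control and red for CTX, with the symbol shape giving the library number. The genes run from Ccl21a, between 50.2 and 104 RPKM, down to Ccl11, between 0.37 and 1.63.

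**Figure D3:**
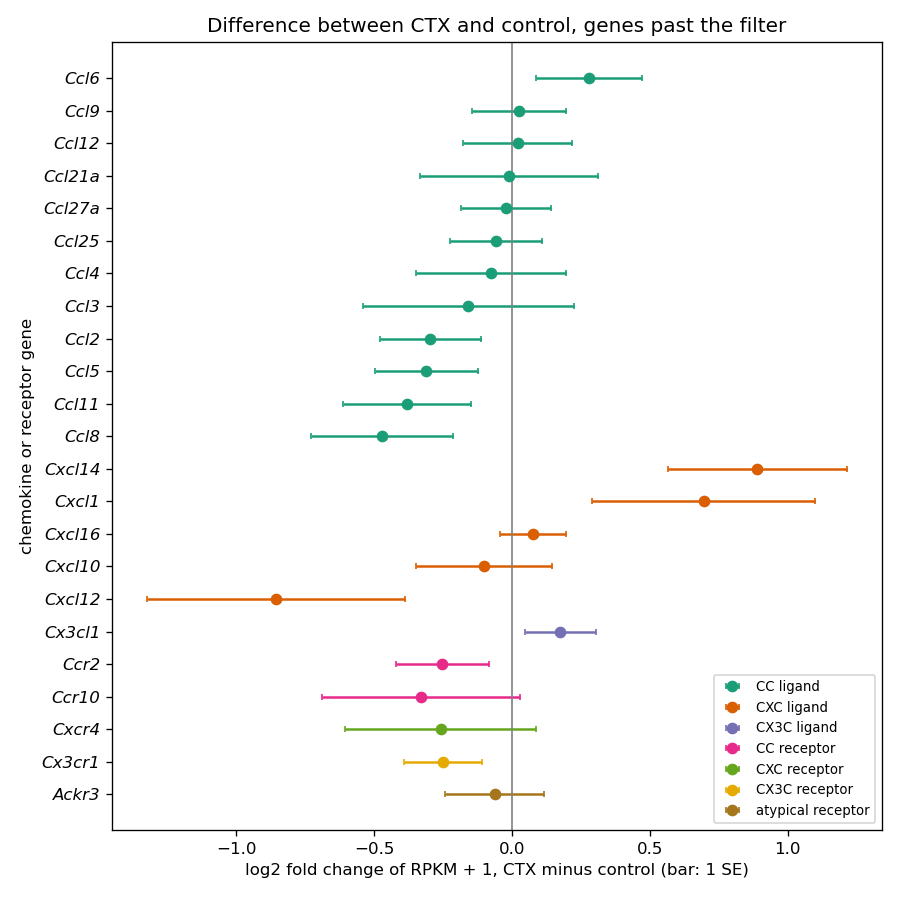
Fitted log2 fold change of RPKM + 1, CTX minus control (horizontal axis), for the same 23 genes ordered by class, with bars of 1 standard error. Cxcl14 (0.89) and Cxcl12 (−0.86) lie at the ends, and the 5 receptors shown all lie left of 0.

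Ccl21a, the CC ligand that lymphatic vessels and lymphoid stroma use to draw in dendritic cells and T cells, was the most abundant chemokine. It had 82.7, 64.5 and 102.1 RPKM in controls and 50.2, 101.4 and 104.3 in CTX. CTX 1 was lowest and the other CTX libraries lay at or near the highest control value, so that the means of 83.1 ± 18.8 and 85.3 ± 30.4 (SD, n = 3) hardly differed. The fitted log2 fold change was −0.01 ± 0.32 (SE), and it turned to 0.00094 after trimmed-mean scaling and to 0.33 without CTX 1. Lymphatic endothelial markers (5 symbols, with Lyve1, Prox1, Flt4, Reln and 1 of 2 Pdpn entries detected and the other at 0) summed to 32.8, 31.8 and 45.6 RPKM in controls and 19.8, 49.6 and 51.2 in CTX. Pdpn made up most of the sum, with 20.57, 22.09 and 34.15 and then 14.65, 35.42 and 37.26. Prox1 was not raised in control 3 or in CTX 2 and 3, with 1.45, 1.33 and 1.24 and then 0.49, 1.24 and 1.22. CTX 1 was lowest in each detected entry, and the part of these markers in the Ccl21a levels was not tested.

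Ccl21a lies on chromosome 4 (42772860 to 42773993, minus strand, mm10), where the mouse genome carries near-identical copies. Ccl21b was listed at 0 in 5 libraries and at 0.16 in control 2, and Ccl21c at 0 in all 6. The Ccl21c entry lies on a scaffold outside the assembled chromosomes in GENCODE M21. The coding sequences of Ccl21a and Ccl21b in GENCODE M21 are 402 bases long and differ at 2 positions, 84 and 194 counted from the first base of the start codon. Bases 61 to 210 are shown because they hold both differences, in capitals.
Ccl21a: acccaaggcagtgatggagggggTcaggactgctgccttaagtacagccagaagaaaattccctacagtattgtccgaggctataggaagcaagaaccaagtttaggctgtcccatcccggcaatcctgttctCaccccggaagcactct
Ccl21b: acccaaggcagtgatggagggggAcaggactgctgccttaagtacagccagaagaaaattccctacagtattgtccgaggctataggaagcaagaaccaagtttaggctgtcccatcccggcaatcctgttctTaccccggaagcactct
Of the 353 stretches of 50 bases in the Ccl21a coding sequence 253 (71.7%) occur unchanged in Ccl21b. How the authors treated reads with several matches is not given in the sources used here, and the Ccl21a value may hold reads of its copies.

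Genes that act with Ccl21a were low. Its receptor Ccr7, carried by migrating dendritic cells and naive lymphocytes, had 0.19 to 0.42 RPKM in controls and 0.15 to 0.20 in CTX. Ccl19, the other Ccr7 ligand, reached 1.03 in control 3 and stayed at 0.10 to 0.15 in the other 5 libraries. The scavenging receptor Ackr4, which takes up Ccl19, Ccl21 and Ccl25, had 0.10 to 0.50 in controls and 0.15 to 0.28 in CTX. None of the 3 reached the minimum for the test.

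**Figure D4:**
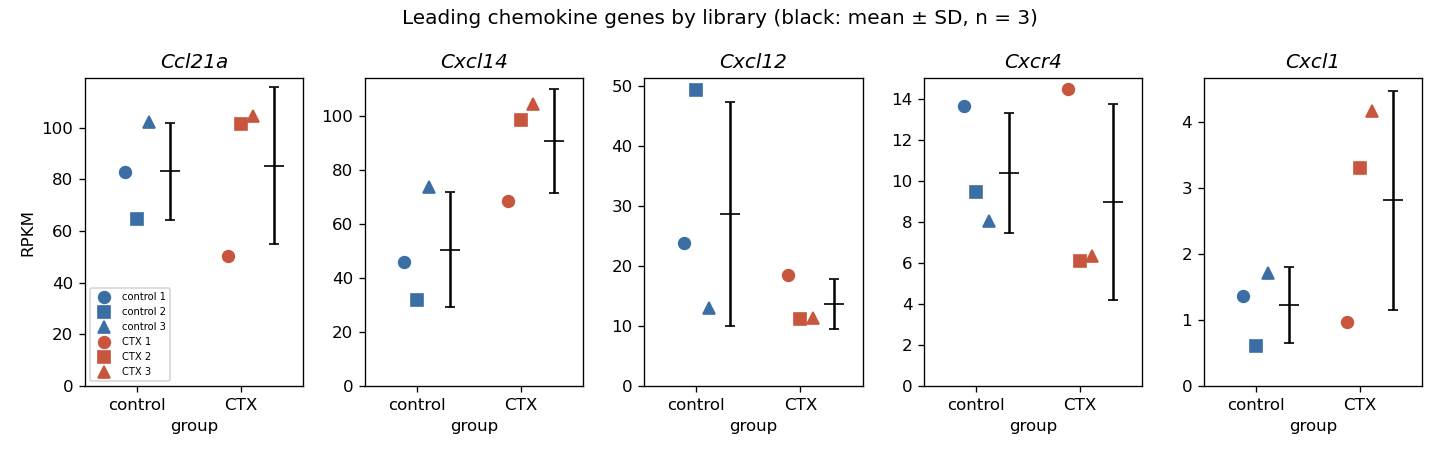
RPKM of 5 chemokine genes (vertical axis, each panel with its own scale from 0) in control and CTX libraries, with black bars for mean ± SD (n = 3). In Cxcl14 and Cxcl1 the highest values are those of CTX 2 and 3, and in Cxcl12 and Cxcr4 CTX 2 and 3 are the lowest.

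Cxcl12, also called SDF-1, holds stem cells and leukocytes in place through Cxcr4, and Ackr3 removes it from the surroundings. Cxcl12 had 23.8, 49.3 and 13.0 RPKM in controls and 18.6, 11.2 and 11.3 in CTX. CTX 2 and 3 lay below every control, but CTX 1 lay between control 3 and control 1. The control mean of 28.7 ± 18.6 was 2.09 times the CTX mean of 13.7 ± 4.21, with a log2 fold change of −0.86 ± 0.47 and an unadjusted limma p of 0.115. Leaving out 1 library at a time moved this value between −1.30 (without control 3) and −0.38 (without control 2).

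Cxcr4 had 13.7, 9.48 and 8.04 RPKM in controls and 14.5, 6.13 and 6.34 in CTX. CTX 1 was the highest library and CTX 2 and 3 the lowest, and the log2 fold change was −0.26 ± 0.35. It was −0.63 without CTX 1 and −0.06 without control 1. Macrophage markers (13 of 14 listed symbols matched, none at 0 in all libraries) summed to 549, 421 and 380 RPKM in controls and 531, 363 and 359 in CTX, in nearly the same order of libraries as Cxcr4. Lyz2 had the highest level of this list (318, 228 and 178 in controls, 282, 189 and 189 in CTX). Other markers of the list divided in CTX 1, where Cxcr4 was highest. C1qb (80.6), C1qa (62.6), C1qc (36.9) and Aif1 (4.79) were also highest in that library. Csf1r (7.54), Mertk (5.76), Mrc1 (3.54), Itgam (1.12) and Cd163 (0.45) were lowest there, and the rest of the list lay between. The summed luteal markers were also highest in CTX 1 and lowest in CTX 2 and 3, and Hsd3b1 had the highest level of that list. Of the single luteal markers, Hsd3b1, Cyp11a1, Star, Scarb1 and Akr1c18 were highest in CTX 1, and Sfrp4, Lhcgr, Ptgfr and Prlr in control 2. Hsd3b1, Star and Prlr were lowest in CTX 2 and 3, and the others in control 3. The part of either cell type in the Cxcr4 levels was not tested. Ackr3 varied least of these 3 genes, with 5.98, 6.66 and 8.96 in controls and 6.08, 8.02 and 6.32 in CTX (log2 fold change −0.06 ± 0.18).

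**Figure D5:**
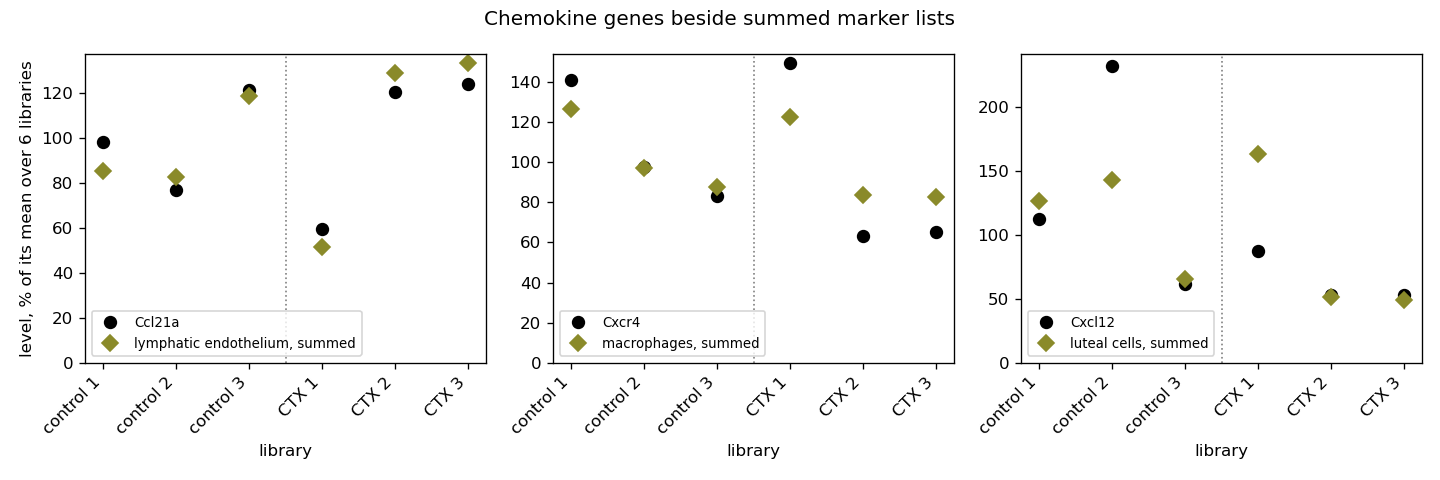
Level in each library as percent of the mean over the 6 libraries (vertical axis, from 0) for Ccl21a, Cxcr4 and Cxcl12 (black circles) and for the summed RPKM of a marker list (olive diamonds). CTX 1 is lowest in both series of the Ccl21a panel and near the top in both series of the Cxcr4 panel. In the Cxcl12 panel CTX 1 is highest for the luteal sum, and control 2 is highest for Cxcl12.

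The sequence before the start is shown for Cxcl12 and Cxcr4, as ligand and receptor, and for Cxcl14 and Cxcl1, which had the largest positive fold changes. The 250 bases come from RefSeq on GRCm38.p6 and read 5′ to 3′ on the gene's strand. They cover chr6:117168285-117168534 (plus strand) for Cxcl12, chr1:128592300-128592549 (minus) for Cxcr4, chr13:56296552-56296801 (minus) for Cxcl14 and chr5:90890995-90891244 (plus) for Cxcl1. Capitals mark the GC box GGGCGG or its reverse complement in Cxcl12 and Cxcr4, and in Cxcl1 a kappa-B-like motif, resembling the binding site of the inflammatory factor NF-kappa-B and spelled GGG, any 2 bases and TTTCC, on either strand. Cxcl14 has no capitals.
Cxcl12: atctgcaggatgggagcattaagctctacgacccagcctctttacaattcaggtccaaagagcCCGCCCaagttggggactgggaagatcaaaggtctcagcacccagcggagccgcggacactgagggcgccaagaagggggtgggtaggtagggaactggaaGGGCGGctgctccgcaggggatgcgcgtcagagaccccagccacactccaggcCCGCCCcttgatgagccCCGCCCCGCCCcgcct
Cxcr4: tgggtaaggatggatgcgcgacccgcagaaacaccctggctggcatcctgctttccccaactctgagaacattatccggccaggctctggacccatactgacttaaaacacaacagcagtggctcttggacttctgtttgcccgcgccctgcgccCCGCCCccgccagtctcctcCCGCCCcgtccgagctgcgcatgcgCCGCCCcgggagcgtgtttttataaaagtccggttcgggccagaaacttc
Cxcl14: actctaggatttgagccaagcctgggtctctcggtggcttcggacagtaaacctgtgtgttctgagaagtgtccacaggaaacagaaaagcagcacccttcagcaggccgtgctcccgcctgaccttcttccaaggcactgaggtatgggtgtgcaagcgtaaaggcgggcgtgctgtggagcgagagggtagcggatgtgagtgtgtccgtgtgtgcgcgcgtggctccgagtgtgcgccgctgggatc
Cxcl1: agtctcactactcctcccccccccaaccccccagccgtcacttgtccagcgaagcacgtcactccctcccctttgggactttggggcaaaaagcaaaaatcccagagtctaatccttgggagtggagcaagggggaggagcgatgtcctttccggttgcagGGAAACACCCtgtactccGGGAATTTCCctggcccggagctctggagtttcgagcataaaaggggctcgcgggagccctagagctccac
The Cxcl12 window held 5 GC boxes, 2 of which overlap by 1 base, and the Cxcr4 window held 3. Cxcr4 also held the TATA box TATAAA on both strands, overlapping each other, 30 and 32 bases before the start. The Cxcl14 window held none of the 3 motifs. In the Cxcl1 window the kappa-B-like motif began 89 and 71 bases before the start. Over all 32851 windows of this length, 32.7% held a GC box, 12.4% a TATA box and 1.41% the kappa-B-like motif. Of the 59 member symbols 43 had at least 1 window, 50 in all. A GC box was in 8 of the 50 (16%), a TATA box in 13 (26%) and the kappa-B-like motif in 6 (12%), those of Ccl9, Ccl20, Ccr3, Cxcl1, Cxcl2 and Cxcl3. A match describes letters and is no measured binding site.

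Cxcl14, a CXC ligand made by epithelial and stromal cells, had the largest fitted difference of all members. It had 45.8, 31.8 and 73.8 RPKM in controls and 68.5, 98.6 and 104.4 in CTX. Control 3 lay above CTX 1, and otherwise the CTX libraries were higher. The CTX mean of 90.5 ± 19.3 was 1.79 times the control mean of 50.4 ± 21.4, with a log2 fold change of 0.89 ± 0.33, an unadjusted limma p of 0.0321 and an adjusted p of 0.99997. The log2 fold change was 1.20 without control 3 and 0.61 without control 2. Over the alternative fits its adjusted p in limma went down to 0.0960, in the fit adjusted for the first residual component. That component was taken from the residuals after the group was fitted. The fold change therefore could not move, and only its error changed. In that fit 159 of all genes were called, against 0 in the main fit. Theca and interstitial markers (7 genes, none at 0) summed to 990, 903 and 1434 RPKM in controls and 744, 1728 and 1731 in CTX. The sum was high in control 3 and CTX 2 and 3, and so was each gene but Insl3. Aldh1a1 made up most of the sum, with 883, 816 and 1218 in controls and 643, 1342 and 1366 in CTX. Insl3 was high in CTX 1 as well, with 9.27, 7.38 and 13.19 and then 16.9, 18.01 and 17.83. It was the only gene of the list whose groups separated, where 3.32% of all genes lay above. Stroma markers (8 genes, none at 0) summed to 529, 416 and 669 in controls and 391, 575 and 585 in CTX. Their members divided, with 5 positive and 3 negative fold changes. Dcn, the most abundant, had 222, 139 and 273 and then 108, 204 and 214. Col1a2 had 43.28, 44.21 and 80.32 and then 54.75, 90.19 and 87.96. The part of either list in the Cxcl14 levels was not tested.

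Cxcl1 attracts neutrophils through Cxcr2. It had 1.37, 0.60 and 1.72 RPKM in controls and 0.97, 3.30 and 4.17 in CTX, which for its 1875 exonic bases stand for about 41, 18, 54, 33, 137 and 134 reads. CTX 2 and 3 were highest and CTX 1 lay within the controls. The log2 fold change was 0.70 ± 0.40 with all libraries, 1.12 without CTX 1 and 0.42 without CTX 3. Its neighbours in the chromosome 5 cluster (90759360 to 90905938) were near 0, with at most 0.38 RPKM for Cxcl5 and at most 0.06 for Cxcl2, Cxcl3 and Cxcl15. The receptors Cxcr2 and Cxcr1 reached at most 0.17 and 0.04. Neutrophil markers (8 genes, with Elane and Ly6g at 0) summed to 2.83, 3.21 and 1.95 RPKM in controls and 3.85, 3.28 and 3.07 in CTX. This order differed from that of Cxcl1, with CTX 1 highest and control 3 lowest. Csf3r was the only gene of the list tested, with a log2 fold change of −0.09 ± 0.15.

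Cx3cl1, or fractalkine, is a membrane-bound ligand that holds Cx3cr1-bearing monocytes and macrophages at endothelium and epithelium. It had 4.66, 4.72 and 5.22 RPKM in controls and 5.02, 6.41 and 5.50 in CTX. Only CTX 1 overlapped the controls, and the log2 fold change was 0.18 ± 0.13. Cx3cr1 had 5.14, 3.89 and 5 in controls and 3.68, 3.51 and 4.07 in CTX, where control 2 lay below CTX 3. Its log2 fold change of −0.25 ± 0.14 was opposite in sign to that of its ligand, and neither gene passed. Cxcl16, a second membrane-bound ligand, had 5.32 to 6.51 RPKM in controls and 6.19 to 6.57 in CTX, the narrowest range among the 10 most abundant members. It shares 552 of its 3021 exonic bases with Zmynd15 on the opposite strand, and the use of strand in counting is not given in the sources used here. Its receptor Cxcr6, found on T and NK cells, had 0.57 to 0.73 and 0.41 to 0.65.

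The monocyte attractants of chromosome 11 (82035571 to 82305690) lie in a cluster of 6 members, Ccl2, Ccl7, Ccl11, Ccl12, Ccl8 and Ccl1. Their RPKM summed to 7.53, 6.27 and 6.86 in controls and 6.01, 3.96 and 3.65 in CTX. All CTX sums lay below all control sums, by a small margin in CTX 1, and the sums were not tested. In every other cluster of members the sums of the groups overlapped. How often such sums separate in other groups of genes was not computed, and of single genes 5.5% lay all below. Within this cluster only Ccl7, which did not reach the minimum for the test, had groups that separated. Ccl2, the main monocyte attractant, had 1.27, 1.49 and 1.47 in controls and 1.40, 0.67 and 0.88 in CTX (log2 fold change −0.30 ± 0.18). Ccl8 had 2.34, 1.36 and 1.86 and then 1.40, 1.41 and 0.46 (−0.47 ± 0.26), and the value was −0.23 without CTX 3, which rests on about 4 reads. The eosinophil attractant Ccl11 had 1.28, 1.63 and 0.83 and then 1.12, 0.37 and 0.71 (−0.38 ± 0.23). These 3 genes had negative values in each of the alternative fits that held them, all but that at a mean RPKM of at least 5. Some of these fits leave the fold change as it was by design. Ccl12 did not share the negative values, with means of 1.34 ± 0.474 and 1.34 ± 0.187.

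Ccl7, which like Ccl2 acts on Ccr2, did not reach the minimum for the test, with 0.86, 0.94 and 1.26 RPKM in controls and 0.55, 0.34 and 0.29 in CTX. All CTX libraries lay below all controls, on about 11, 12 and 17 reads against 8, 6 and 4. The only other member below the minimum whose groups separated was Cxcl9, at 0.25 to 0.52 and 0.22 to 0.23. In a fit without the filter 2 of 60 members (3.33%) separated, against 4.46% of all listed genes. Ccr2, the receptor of inflammatory monocytes, had 2.37, 1.42 and 1.82 in controls and 1.5, 1.25 and 1.42 in CTX (log2 fold change −0.25 ± 0.17). Control 2 had the same value as CTX 3. Monocyte markers (5 genes, with Fcnb at 0) summed to 9.28 to 17.4 RPKM in controls and 15.4 to 17.5 in CTX, nearly all of it Plac8, and Ly6c2 reached at most 0.50.

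A second chromosome 11 cluster (83525778 to 83664683) holds Ccl5, Ccl9, Ccl6, Ccl3 and Ccl4, all 5 past the filter, with sums of 18.3, 11.9 and 14.5 RPKM in controls and 18.1, 13.6 and 14.8 in CTX. Unlike the first cluster these sums overlapped, and control 1 and CTX 1 were highest. Ccl6, a macrophage product, had the highest level of the 5 genes in every library, with 10.4, 7.02 and 6.17 in controls and 10.4, 8.98 and 9.23 in CTX (log2 fold change 0.28 ± 0.19). Ccl9 lay between 1.67 and 2.5 in all libraries. Ccl5, made by T and NK cells and macrophages, had 2.88, 1.77 and 1.92 and then 1.89, 1.36 and 1.41 (−0.31 ± 0.19), with CTX 1 inside the control range. The inflammatory ligands Ccl3 and Ccl4 varied most of these 5 genes. Ccl3 had 1.23, 0.49 and 3.19 and then 1.58, 0.94 and 1.00, and Ccl4 had 1.33, 0.57 and 1.35 and then 1.67, 0.61 and 0.71. Ccr1, a receptor of Ccl3 and Ccl5, stayed below 1 at 0.55 to 0.78 and 0.42 to 0.82.

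The epithelial and mucosal ligands showed no common direction. Ccl27a, a skin chemokine, had 5.84, 4.80 and 5.66 RPKM in controls and 4.38, 5.19 and 6.58 in CTX, and its sign turned with quantile normalization. Ccl25, the thymic and gut ligand of Ccr9, had 1.53 to 2.41 over all libraries, and it shares 204 of its 7445 exonic bases with Elavl1 on the opposite strand, which had 18.2 to 20.7. Ccl28 reached an RPKM of 1 in 2 libraries only, control 2 (1.91) and CTX 1 (1.95). Ccr10, the receptor of Ccl27 and Ccl28, had 2.62, 2.48 and 2.14 in controls and 0.51, 2.55 and 2.72 in CTX. Its fold change of −0.33 ± 0.36 came from CTX 1 and was 0.09 without that library. Ccr9 had at most 0.12.

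The interferon-induced ligands that act on Cxcr3 were low. Cxcl10 had 1.45, 1.65 and 1.64 RPKM in controls and 2.47, 1.06 and 0.94 in CTX, with the controls between CTX 1 and the other CTX libraries (log2 fold change −0.10 ± 0.25). It shares 133 of its 2252 exonic bases with Art3 on the opposite strand. Cxcl11, annotated as a polymorphic pseudogene, reached at most 0.02, and Cxcr3, the receptor of activated T cells, lay at 0.52 to 0.80 in controls and 0.70 to 0.81 in CTX. T and NK cell markers (13 genes, none at 0 in all libraries) summed to 7.57 to 9.49 RPKM in controls and 6.32 to 9.99 in CTX. Cxcl13 and its B cell receptor Cxcr5 stayed at or below 0.35 and 0.61, and Cxcr5 shares 110 of 3332 exonic bases with the more abundant Bcl9l on the opposite strand. B and plasma cell markers (7 genes matched, none at 0) summed to 14.5 to 20.6 RPKM in controls and 5.7 to 16.6 in CTX.

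Several members reached an RPKM of 1 in a single library. Ccl22 and Ccl17 attract T cells through Ccr4. Ccl22 had 1.13 in control 3 and 0.02 to 0.38 elsewhere, and Ccl17 had 1.29 in CTX 1 and 0.09 to 0.98 elsewhere, while Ccr4 had at most 0.09. Ackr1, the chemokine-binding Duffy receptor of red cells and venules, had 0, 0.40 and 0.04 in controls and 0.24, 0.96 and 1.30 in CTX, highest in CTX 2 and 3. It shares 361 of its 1405 exonic bases with Cadm3 on the same strand, which had 0.16, 0.34 and 0.19 and then 0.49, 2.74 and 2.33. Erythroid markers (6 genes, none at 0 in all libraries) summed to 18.4, 27.2 and 22.8 in controls and 21.8, 75.5 and 66.5 in CTX, again high in CTX 2 and 3, and the part of either in the Ackr1 values was not tested. The scavenger Ackr2 had 0.45 to 0.77 and 0.44 to 0.73. Ccl1, Ccl24, Ccl26, Cxcl17, Ccl27b, Ccr3 and Ccr8 had at most 0.35 RPKM.

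Genes that surround the chemokine system were compared on lists chosen by function. Of other chemokine-like ligands and receptors 9 of 13 were tested, 3 with positive and 6 with negative fold changes (median −0.05), and 0 passed. Their most abundant members were the cytokine Mif, with 260, 278 and 296 RPKM in controls and 388, 347 and 298 in CTX, all above the controls but CTX 3 by a small margin, and the chemerin gene Rarres2, with 172, 123 and 232 and then 158, 166 and 169. The Mif receptor Cd74, named after its values were seen, had 138, 123 and 143 and then 99.97, 81.5 and 79.2, all CTX libraries below all controls. Mif and Cd74 were the only ones of the 9 whose groups separated, 1 above and 1 below, where 3.32% of all genes lay above and 5.5% below. Genes that cleave or present chemokines had 5 positive and 12 negative (median −0.08), led by the heparan sulfate carriers Sdc1 (57.2 ± 18.9 and 59.4 ± 41.6) and Sdc4 (56.1 ± 6.37 and 51.1 ± 3.39). Receptor signalling genes had 11 positive and 20 negative (median −0.06), led by the G protein subunits Gnb1 (87.2 ± 9.35 and 89.7 ± 17.7) and Gnb2 (80.3 ± 5.56 and 88.02 ± 29.4). NF-kappa-B and cytokine genes that control chemokines had 6 positive and 8 negative (median −0.01), led by Hif1a, at 40.2 to 40.5 in controls and 36.3 to 40.2 in CTX, and by the immediate early gene Nr4a1 (63.3 ± 45.01 and 38.3 ± 26.5). No member of these lists passed in limma, and their medians lay near that of all genes, −0.01.

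The remaining marker lists give the setting of these levels. Blood endothelial markers (8 genes, 7 with negative fold changes) summed to 143 to 159 RPKM in controls and 115 to 158 in CTX. Dendritic cell markers (6 genes) summed to 13.9 to 16.1 and 10.5 to 16.3, and mast cell and eosinophil markers (7 genes) to 1.5 to 2.44 and 0.26 to 3.7. Smooth muscle markers (8 genes) had 509 to 713 and 686 to 816, and tissue handling genes (9) 112 to 141 and 103 to 141. Surface epithelium markers (10 genes) summed to 94.4 to 127 and 66.2 to 102, with 1 positive and 9 negative fold changes. In 5 of these 10 all CTX libraries lay below all controls, against 5.5% of all genes, and 0 passed the test. Adipocyte markers (8 genes) summed to 166, 221 and 151 in controls and 197, 192 and 178 in CTX, but their members divided the libraries. Plin4 had 157, 216 and 18.01 and then 190, 10.9 and 9.9, while Cfd had 1.63, 0.07 and 90.8 and then 0.48, 108.7 and 97.1. Adipoq, with 0.27, 0 and 13.3 and then 0.08, 17.3 and 15.5, was high in the same libraries as Cfd. In these 7 lists no gene was at 0 in all libraries.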

How the data were processed

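RNA from 6 ovary libraries was compared, 3 control and 3 CTX. For each library the authors deposited a table of gene symbols, Ensembl identifiers and values taken here as RPKM. No header states the unit. It was read from the values, because low values times exon length (GENCODE M21, GRCm38, the assembly of mm10; 45229 of 46078 identifiers matched) fell within 0.2 of whole reads in 97.7 to 98.1% of cases, with 1 step per library, which also gives the depth. Read numbers in the text are that depth times RPKM and exon length, and are approximate, since they sum to 1.19 to 1.20 times the depth over all genes. Bowtie 0.12.2 and mm10 are named in the submitters' processing notes, and neither the counter nor its filters or use of strand is given there.

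Values were transformed as log2(RPKM + 1), which understates differences of low genes. Genes at RPKM 1 or more in 3 or more libraries entered limma 3.58.1 (R 4.3.3), with a mean-variance trend, two-sided. A call needed a p below 0.05 after Benjamini-Hochberg adjustment over all 14535 genes. The fit was tested on simulated data. Every member that reached an RPKM of 1 is named, except 1 that is counted but not reported here, and of each functional list the 2 most abundant genes. Members, lists and motifs were chosen with earlier results of these data known. The alternatives were 2 other pseudocounts, no filter and a mean RPKM of at least 5, trimmed-mean scaling, quantile normalization, no trend, the replicate number as a block, adjustment for the first residual component and each library left out.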

Additional observations from a re-analysis of the deposited data

How the results depend on the processing

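None of the 15 alternatives called a chemokine or receptor gene (lowest adjusted p 0.0960). All genes called rose from 0 to 17 without a filter, to 159 with adjustment for the first residual component and to 5 without CTX 1. Over all left-out libraries they ranged from 0 to 5. The residual component was taken after the group fit, so that adjustment changes the error alone, and the 0.0960 comes from it. Members whose groups did not overlap, 0 in the reported fit, were 2 without a filter (4.46% of all genes), 2 after trimmed-mean scaling (9.67%), 1 after quantile normalization (9.45%) and 0 to 9 with a library left out (11.6 to 39.8%). Their median log2 fold change was −0.011 at a mean RPKM of at least 5, where 9 members were left, and −0.20 to −0.018 with a library left out.

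The fits without a filter, at a mean RPKM of at least 5 and without trend leave each fold change as it was by design. So do those with the replicate block or the first residual component. Only the other alternatives could turn a sign. The sign was the same in each alternative that held the gene for 12 of 24 members (Ccl2, Ccl5, Ccl6, Ccl8, Ccl11, Ccr2, Cx3cl1, Cx3cr1, Cxcl1, Cxcl12, Cxcl14 and Cxcr4). It turned for Ccl21a after trimmed-mean scaling (0.00094) and for Ccl27a after quantile normalization (0.014). With a library left out it also turned, with ranges of −0.17 to 0.086 for Ackr3, −0.15 to 0.15 for Ccl12, −0.19 to 0.33 for Ccl21a, −0.14 to 0.047 for Ccl25, −0.15 to 0.094 for Ccl27a, −0.50 to 0.24 for Ccl3, −0.30 to 0.061 for Ccl4, −0.042 to 0.15 for Ccl9, −0.56 to 0.093 for Ccr10, −0.37 to 0.052 for Cxcl10 and −0.0025 to 0.12 for Cxcl16. The cause was not tested.

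The deviations of libraries with the same replicate number correlated at 0.40, −0.54 and 0.60 across genes. The first residual component held 78.0% of the variation within groups and largely sets these values. They therefore cannot tell whether replicate numbers pair the samples. The fit with the replicate block called 0 members and 0 genes. Depth limits short genes on both sides of the filter, since Ccl7, below it, and Ccl8, above it, rest on 4 to 19 reads.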

Other observations

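Control 3 stood above the other 5 libraries in 3 ligands that attract dendritic cells or T cells or are released by activated macrophages, a pattern noticed in the values and not tested. Its RPKM was 3.19 for Ccl3 (0.49 to 1.58 elsewhere), 1.13 for Ccl22 (0.02 to 0.38) and 1.03 for Ccl19 (0.10 to 0.15), the last on about 15 reads. Other ligands of these kinds did not share the pattern. Ccl17, which like Ccl22 acts on Ccr4, was highest in CTX 1 (1.29) and had 0.12 in control 3. Ccl4 was highest in CTX 1 (1.67) and Ccl5 in control 1 (2.88), against 1.35 and 1.92 in control 3. The immediate early receptor gene Nr4a1 was also highest in control 3, with 113 RPKM against 22.1 to 68.9, as was Egr1, with 39.2 against 18.7 to 26.8. Other immediate early genes were not. Jun and Atf3 were highest in control 1, Junb and Ier2 in CTX 1 and Fos in CTX 2, and Fosb had 0.71 in controls 2 and 3 alike. The dendritic cell marker list did not single out control 3, with a sum of 16.1 against 10.5 to 16.3. Nor did the macrophage list, with 380 against 359 to 549.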
